A study of Mus musculus with 6 samples.

Results

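The genes described here make and handle cholesterol and fatty acids in the embryonic mouse pancreas. They are 35 genes out of the 37224 in the deposited table, chosen by name: 17 enzymes of sterol synthesis, 5 genes of the SREBP system, 9 enzymes of fatty acid synthesis and modification, and 4 genes of sterol transport and sensing. Each was found in the table by its Ensembl identifier, and all 35 passed the filter on low counts, which left 15578 genes. RNA came from wild-type (wt) pancreata of C57/Bl6J embryos at 13.5 days post coitum (dpc), in 3 samples, and at 15.5 dpc, in 3 samples, with no treatment named in either group. Each sample was a pool of up to 3 embryos of one genotype. Whole organs were used, so every value is a sum over epithelium, mesenchyme, vessels, nerves and blood, and a smaller number of cells of one type cannot be told apart from less RNA per cell.

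Cholesterol is built from acetyl-CoA through the mevalonate pathway, which leads to the isoprenoid farnesyl diphosphate, then to squalene, to the first sterol lanosterol and, by a series of demethylations, reductions and isomerisations, to cholesterol. Fatty acids are built from the same acetyl-CoA by acetyl-CoA carboxylase and fatty acid synthase and are then elongated and desaturated. Both routes are driven by the SREBP transcription factors, which are held in the membrane of the endoplasmic reticulum by SCAP and INSIG proteins when sterols are plentiful and are released to the nucleus when sterols are scarce. Exocrine cells, which differentiate between these stages, carry a large endoplasmic reticulum and secrete through membrane-bound granules.

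The total counts ranged from 10546028 to 16389237 per sample, and counts were scaled by TMM factors of 0.847 to 1.08. Stages were compared with edgeR's quasi-likelihood test, with p-values adjusted by the Benjamini-Hochberg method over all 15578 genes and a threshold of 0.05, and normalised counts are counts scaled to a common library size. Of 10 acinar markers, all 10 were higher at 15.5 dpc, and their summed level went from 61994 to 75258 normalised counts at 13.5 dpc to 390574 to 935778 at 15.5 dpc. Of 6 epithelial markers 4 were higher, with sums of 23348 to 24558 against 31134 to 40712, and of 9 mesenchymal markers 2 were higher and 1 lower, with overlapping sums of 122888 to 139066 and 91439 to 135741. Of 10 endocrine markers 5 were higher and 1 lower, with sums of 24488 to 26401 against 28239 to 49244. Of 7 erythroid markers 1 was higher and 4 were lower, with sums of 11723 to 14499 against 1104 to 1528. Of 8 neural and glial markers 1 was higher and 3 were lower, with sums of 1827 to 1902 against 2145 to 2605, of which *Ret*, the gene called higher, made up 685 to 773 and 1265 to 1766. Of 8 immune markers 2 were lower and of 7 endothelial markers 1 was higher, with sums of 2147 to 2226 against 1731 to 2137 and of 6066 to 6535 against 5943 to 7062. The part of these shifts in the results below was not tested. Markers of other cells with a strong lipid programme were read in the same way. Of 5 steroid cell markers 2 were tested, with sums of 27.3 to 31.7 normalised counts at 13.5 dpc and 55.4 to 62.4 at 15.5 dpc. *Cyp11a1*, the first enzyme of steroid synthesis, was higher (log2 fold change 1.14, adjusted p = 0.00457), while *Cyp17a1* had 0 counts in all samples and *Hsd3b1* at most 2. Of 6 fat cell markers 4 were tested, with overlapping sums of 283 to 419 and 352 to 634, mostly *Fabp4* (0.66, adjusted p = 0.097). Of 8 liver markers 3 were lower (*Afp*, *Serpina1a* and *Fgb*) and 0 higher. Their sums overlapped, at 6208 to 6940 and 5904 to 10970, but *Ttr* made up 5007 to 5255 and 5022 to 9831 of these. The sums thus mostly follow *Ttr* and do not show the fall of the 3 genes called lower. *Afp*, the next most abundant, had 756 to 1113 normalised counts and then 525 to 673. The part of these cells in the results was not tested.
Samples of one stage differed among themselves with gene length. Over all genes tested, the Spearman rho of exon length with the log2 ratio of 15.5 dpc replicate 1 to replicate 2 was -0.589, and it was -0.49 for replicate 1 to 3 and 0.525 for replicate 2 to 3. At 13.5 dpc the rho was -0.0289 for replicate 1 to 2, -0.325 for 1 to 3 and -0.312 for 2 to 3. Results were therefore also computed with the trend of each library with gene length removed.

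Between 13.5 and 15.5 dpc the lipid genes did not move as a block. Of the 35, 6 were higher at 15.5 dpc (*Insig1*, *Ebp*, *Sc5d*, *Insig2*, *Scd2* and *Srebf1*), 4 were lower (*Hsd17b7*, *Scd1*, *Hmgcs1* and *Fads1*) and 25 did not pass an adjusted p of 0.05. The share that passed, 28.6%, lay near the 22.3% of all genes tested. In the table as a whole 11.6% of genes were called higher and 10.7% lower. The median log2 fold change of the 35 genes was 0.07, against -0.01 for all genes, and the median of its absolute size was 0.29, against 0.31. For 16 of the 35 genes (45.7%) the stages had no overlap between samples, against 46.4% of all genes. In 9 of them all 15.5 dpc samples lay above (22.8% of all genes) and in 7 all lay below (23.6% of all genes). The study's own thresholds ask for an adjusted p of at most 0.1, a level over 100 normalised counts at one stage or the other, and a fold under 0.6 or over 1.6. By these, 3 of the 35 genes passed, all higher (*Insig1*, *Ebp* and *Fdps*), where 10.4% of protein-coding genes did (6.47% higher and 3.9% lower). *Hsd17b7* stood just outside, at a fold of 0.601, and the count was 3 higher and 1 lower with upper quartile factors, no filter, at least 10 counts in every sample or the replicate block, and 2 higher and 2 lower when libraries were scaled by their totals alone. Without 15.5 dpc replicate 2 this number was 5, and it was 2 without 13.5 dpc replicate 1 or 2 or without 15.5 dpc replicate 1. It was also 2 with the trend with gene length removed, where the log2 fold change of *Fdps* was 0.47.
The number called at an adjusted p of 0.05 moved with the samples used. It was 1 without 13.5 dpc replicate 1, 1 without replicate 2 and 2 without replicate 3, and it was 12, 19 and 1 without 15.5 dpc replicates 1, 2 and 3. The share of all genes called moved too, to 7.83%, 8.45% and 8.88% without 13.5 dpc replicates 1, 2 and 3 and to 26.9%, 48% and 9.05% without 15.5 dpc replicates 1, 2 and 3. When libraries were scaled by their totals alone, the split of calls was 2 higher and 6 lower, where 7.27% of all genes were higher and 18.9% lower. With upper quartile factors it was 4 higher and 5 lower, where 10.7% of all genes were higher and 11.9% lower. *Insig1* alone among the called genes kept its call in every fit run.

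**Figure D1:**
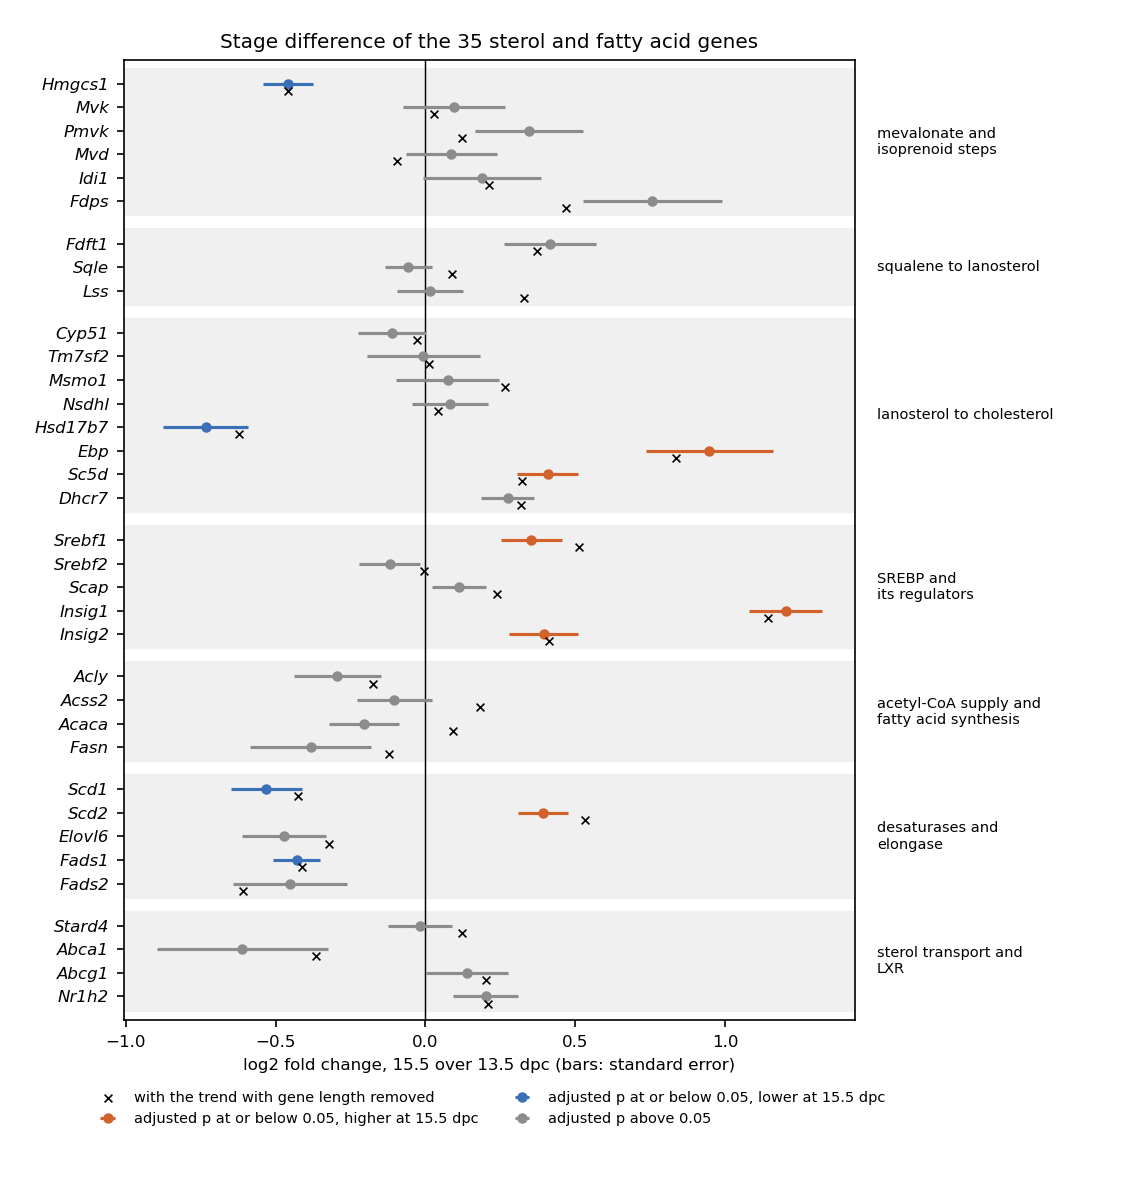
Log2 fold change of each of the 35 genes, 15.5 over 13.5 dpc, by role in the pathway, with its standard error from edgeR and, as a cross, the value with the trend with gene length removed. The called genes spread from -0.73 (*Hsd17b7*) to 1.20 (*Insig1*), with raised and lowered genes within the same steps of the pathway.

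Promoters of the called genes are shown because SREBP proteins act at such promoters together with the CCAAT-binding factor NF-Y. RefSeq promoters of mm10 (GRCm38.p6; 250 bases before to 50 after the start of a gene) were held for 27 of the 35 genes. The sequences of the 250 bases before the start follow, 5′ to 3′, for the 5 called genes with a single promoter entry. Capitals mark matches, read on either strand, to the NF-Y motif CCAAT, the E-box motif CACGTG and a form of the sterol regulatory element spelled TCACNCCAC.
*Insig1*, chr5:28071162-28071411, plus strand: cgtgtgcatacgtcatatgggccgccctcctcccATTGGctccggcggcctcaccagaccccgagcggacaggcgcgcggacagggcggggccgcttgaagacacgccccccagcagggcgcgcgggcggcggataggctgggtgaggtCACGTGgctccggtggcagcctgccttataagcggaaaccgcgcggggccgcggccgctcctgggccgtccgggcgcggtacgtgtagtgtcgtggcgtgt
*Ebp*, chrX:8193513-8193762, minus strand: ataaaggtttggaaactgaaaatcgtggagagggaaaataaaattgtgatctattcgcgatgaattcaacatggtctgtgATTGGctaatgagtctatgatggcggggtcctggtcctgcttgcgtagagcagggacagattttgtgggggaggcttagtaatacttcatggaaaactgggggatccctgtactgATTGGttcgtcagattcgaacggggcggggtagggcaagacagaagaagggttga
*Sc5d*, chr9:42264301-42264550, minus strand: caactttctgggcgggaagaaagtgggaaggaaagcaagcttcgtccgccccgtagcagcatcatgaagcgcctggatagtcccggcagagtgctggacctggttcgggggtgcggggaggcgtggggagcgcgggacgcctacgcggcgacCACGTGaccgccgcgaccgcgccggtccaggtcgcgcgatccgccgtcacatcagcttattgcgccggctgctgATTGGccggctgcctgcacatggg
*Hmgcs1*, chr13:119690101-119690350, plus strand: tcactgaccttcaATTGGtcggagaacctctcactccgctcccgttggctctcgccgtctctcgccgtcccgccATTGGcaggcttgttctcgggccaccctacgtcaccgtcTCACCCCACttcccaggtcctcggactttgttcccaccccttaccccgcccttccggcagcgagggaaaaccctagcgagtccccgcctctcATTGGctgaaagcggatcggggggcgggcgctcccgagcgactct
*Hsd17b7*, chr1:169969206-169969455, minus strand: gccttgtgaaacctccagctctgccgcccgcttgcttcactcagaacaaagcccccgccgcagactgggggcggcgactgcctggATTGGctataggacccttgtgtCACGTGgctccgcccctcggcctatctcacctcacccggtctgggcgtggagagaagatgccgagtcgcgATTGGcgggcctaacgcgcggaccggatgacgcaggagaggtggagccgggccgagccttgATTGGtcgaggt
CCAAT was found in at least 1 promoter of 21 of the 27 genes (77.8%), and all 5 genes above had it. Among all genes in the promoter table the share was 41.1%, and among those tested here 42.5%. The letters TCACNCCAC were found in 1 of the 27 genes, *Hmgcs1*, 137 bases before its start, and in 1.44% of all genes. The E-box CACGTG was found in 6 of the 27 genes (22.2%), *Insig1*, *Sc5d* and *Hsd17b7* among them, in 8.09% of all genes and in 11.3% of those tested. The Sp1 motif GGGCGG, which is not in capitals, was found in 22 of the 27 (81.5%), in 38.2% of all genes and in 67.6% of those tested. In these 250 bases no match of one motif overlapped a match of another, and a match is a description of these letters, not of bound protein. Genes called higher and genes called lower both had CCAAT.

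The genes of SREBP control held the highest rise of the 35. *Insig1* encodes a membrane protein that retains the SCAP-SREBP complex in the endoplasmic reticulum and is itself a well-known SREBP target. It had 654, 685 and 713 normalised counts at 13.5 dpc and 1814, 1379 and 1531 at 15.5 dpc (replicates 1, 2 and 3). The stages were well apart. The log2 fold change was 1.20 (standard error 0.12, adjusted p = 0.0011, edgeR), a 2.3-fold rise, with values of 1.09 to 1.30 when single samples were omitted. Its paralog *Insig2*, which acts in the same complex, had 311, 283 and 299 normalised counts at 13.5 dpc and 437, 350 and 388 at 15.5 dpc. All samples of 15.5 dpc lay above those of 13.5 dpc (log2 fold change 0.39, standard error 0.12, adjusted p = 0.0484, edgeR). *Srebf1* encodes SREBP-1, the form most tied to fatty acid synthesis. It rose from 1702, 1787 and 1850 to 2526, 2096 and 2201 normalised counts (log2 fold change 0.35, standard error 0.10, adjusted p = 0.0443, edgeR). *Srebf2* encodes SREBP-2, the form most tied to cholesterol synthesis. It had 2789 ± 244 normalised counts at 13.5 dpc and 2568 ± 160 at 15.5 dpc (SD, n = 3), and the stages overlapped (log2 fold change -0.12, standard error 0.10, adjusted p = 0.409, edgeR). *Scap*, the escort of both SREBPs, had 1311 ± 76.1 and 1417 ± 59.6 (SD, n = 3), a log2 fold change of 0.11 (adjusted p = 0.381, edgeR).
The calls of *Insig2* and *Srebf1* stood close to the threshold and were lost in 9 and 8 of the 16 other fits. Without 13.5 dpc replicates 1, 2 and 3 and without 15.5 dpc replicate 3, the adjusted p was 0.132, 0.177, 0.15 and 0.141 for *Insig2* and 0.177, 0.154, 0.119 and 0.124 for *Srebf1*, and with library size only it was 0.222 and 0.252. Of the exon bases of *Scap*, 18.9% overlap a gene on the opposite strand, which had 1 count over the 6 samples, and for *Srebf1* the share is 1.94%.

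Ratios within a sample do not depend on the scaling of libraries. Per kilobase of exon, *Insig1* stood above *Insig2* by log2 ratios of 1.44, 1.64 and 1.62 at 13.5 dpc and 2.42, 2.35 and 2.35 at 15.5 dpc. The geometric mean ratio was thus 2.96 at 13.5 dpc and 5.17 at 15.5 dpc, so *Insig1* became the more abundant transcript by a wider margin. The difference of 0.80 on the log2 scale was larger than the SD of 0.11 and 0.042 within the stages (p = 0.1 by a two-sided exact permutation test, which cannot go lower with 3 samples against 3). *Srebf1* stood below *Srebf2* in every sample, with log2 ratios of -0.84, -0.72 and -0.90 at 13.5 dpc and -0.10, -0.55 and -0.40 at 15.5 dpc. The ratio thus moved by 0.47 towards *Srebf1* (exact permutation test, two-sided, p = 0.1), with the SREBPs closest to each other in 15.5 dpc replicate 1. Without 13.5 dpc replicate 1 or 3 the exact permutation test gave p = 0.2 for this pair, with differences of 0.46 and 0.43. 4 pairs were compared in all, and the exact test gave p = 0.1 for each.

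**Figure D2:**
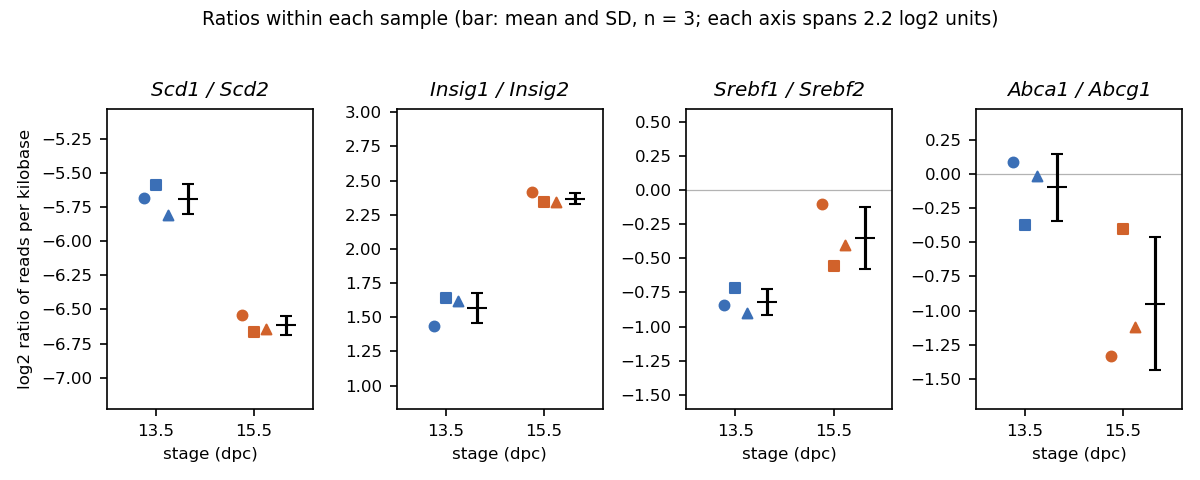
Log2 ratio of reads per kilobase for 4 pairs of related genes in each sample of 13.5 dpc (blue) and 15.5 dpc (orange), with circles, squares and triangles for replicates 1, 2 and 3 and bars for the mean and SD (n = 3). The stages were apart for each pair, with the narrowest gap for *Abca1* to *Abcg1* (-0.37 in 13.5 dpc replicate 2 and -0.40 in 15.5 dpc replicate 2).

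In the mevalonate pathway, the entry enzyme fell while the last enzyme had its highest value at 15.5 dpc. *Hmgcs1* encodes the cytosolic HMG-CoA synthase, which joins acetyl-CoA to acetoacetyl-CoA. It had 1984, 2018 and 2011 normalised counts at 13.5 dpc and 1425, 1538 and 1412 at 15.5 dpc. The replicates were close and the stages apart (log2 fold change -0.46, standard error 0.083, adjusted p = 0.00933, edgeR). With the trend with gene length removed the value was again -0.46. *Fdps*, the synthase of farnesyl diphosphate, had 475, 493 and 477 normalised counts at 13.5 dpc and 1158, 605 and 684 at 15.5 dpc. All samples of 15.5 dpc lay above, but replicate 1 was far from the other two, and the log2 fold change of 0.76 (standard error 0.23) did not pass the threshold (adjusted p = 0.0552, edgeR). Omitting that replicate gave 0.42 (adjusted p = 0.00916), and omitting replicate 2 gave 0.95 (adjusted p = 0.00432). It was also called by DESeq2 (0.77, adjusted p = 0.0126) and in the fit with no filter (0.73, adjusted p = 0.039). The steps between them, the kinases *Mvk* and *Pmvk*, the decarboxylase *Mvd* and the isomerase *Idi1*, did not pass, with log2 fold changes of 0.09, 0.35, 0.09 and 0.19 and adjusted p-values of 0.193 to 0.70. The value of *Pmvk* was 0.13 with 15.5 dpc replicate 1 omitted, 0.12 with the length trend removed and 0.50 with replicate 2 omitted, where it was called (adjusted p = 0.021). For *Mvk*, *Pmvk* and *Mvd*, 15.5 dpc replicate 1 was above all other samples, with 648, 682 and 620 normalised counts.
*Idi1* was the least abundant of the 35 genes per length, at 0.767 RPKM (reads scaled to exon length and library size) at 13.5 dpc. Of its 50-base windows 17.7% occur in transcripts of other genes, and for *Fdps* the share was 26.2%. As only uniquely aligned reads were counted, these counts are uncertain. The call of *Hmgcs1* was lost when 13.5 dpc replicate 1, 2 or 3 was omitted (adjusted p = 0.0589, 0.06 and 0.0527) or 15.5 dpc replicate 3 (adjusted p = 0.0645). Its change stayed between -0.49 and -0.44 when single samples were omitted.

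The 3 enzymes from farnesyl diphosphate to lanosterol did not pass the threshold. *Fdft1*, squalene synthase, had 693, 707 and 683 normalised counts at 13.5 dpc and 1135, 746 and 902 at 15.5 dpc. The stages were apart (log2 fold change 0.42, standard error 0.15, adjusted p = 0.0882, edgeR). Of its exon bases 26.8% overlap *Ctsb* on the opposite strand, which had 27258 counts over the 6 samples, and 9.38% of its windows occur in other transcripts. Its change was 0.56 with 15.5 dpc replicate 2 omitted (adjusted p = 0.00447) and 0.25 with replicate 1 omitted (adjusted p = 0.0977). *Sqle*, the squalene epoxidase, had 1281 to 1314 normalised counts at 13.5 dpc and 1234 to 1270 at 15.5 dpc. All samples of 15.5 dpc lay slightly below, and the log2 fold change was -0.058 (standard error 0.079, adjusted p = 0.612, edgeR). *Lss*, which closes the ring to lanosterol, had 441 to 513 and 439 to 509 normalised counts, with overlapping stages (log2 fold change 0.01, standard error 0.11, adjusted p = 0.932, edgeR).

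Of the 8 enzymes from lanosterol to cholesterol, 2 rose, 1 fell and 5 did not pass, where 11.6% of all genes were called higher and 10.7% lower. *Ebp* encodes the sterol isomerase that moves the double bond of the ring. It had 322, 322 and 272 normalised counts at 13.5 dpc and 785, 442 and 543 at 15.5 dpc, where replicate 1 was the highest. The stages did not overlap (log2 fold change 0.95, standard error 0.21, adjusted p = 0.0194, edgeR), and the change was 0.69 without 15.5 dpc replicate 1 and 0.84 with the trend with gene length removed. *Sc5d*, the desaturase that acts on the product of *Ebp*, had 293, 277 and 297 normalised counts at 13.5 dpc and 379, 410 and 360 at 15.5 dpc (log2 fold change 0.41, standard error 0.10, adjusted p = 0.0276, edgeR). *Dhcr7*, which acts after *Sc5d* in the last reduction of the ring, had 700, 724 and 763 and then 924, 861 and 859 normalised counts. All its samples of 15.5 dpc lay above, but its log2 fold change of 0.27 (standard error 0.089) did not pass (adjusted p = 0.0636, edgeR). With 15.5 dpc replicate 2 omitted it was 0.30 and called (adjusted p = 0.0275).
*Hsd17b7*, the 3-ketosteroid reductase of the earlier demethylation steps, went the other way. It had 236, 242 and 224 normalised counts at 13.5 dpc and 129, 167 and 125 at 15.5 dpc. The stages were apart (log2 fold change -0.73, standard error 0.14, adjusted p = 0.0122, edgeR), and this was the lowest value of the 35 genes. *Cyp51*, *Tm7sf2*, *Msmo1* and *Nsdhl*, other enzymes of the route from lanosterol, had overlapping stages and log2 fold changes of -0.11, -0.0066, 0.074 and 0.082 (adjusted p of 0.489 to 0.984). *Cyp51*, the lanosterol demethylase, had 975 to 1043 normalised counts at 13.5 dpc and 854 to 1064 at 15.5 dpc. Of the exon bases of *Tm7sf2*, 15.3% overlap *Vps51* on the same strand, so its count is uncertain.
These calls were lost when some samples were omitted. Without 13.5 dpc replicates 1, 2 and 3 and 15.5 dpc replicate 3, the adjusted p was 0.0726, 0.0693, 0.0895 and 0.0592 for *Ebp* and 0.11, 0.129, 0.098 and 0.0771 for *Sc5d*. For *Hsd17b7* it was 0.0626, 0.0623 and 0.0624 without 13.5 dpc replicates 1 and 2 and 15.5 dpc replicate 3. *Sc5d* was also above the threshold when libraries were scaled by their totals alone (0.20, adjusted p = 0.25) and with the trend with gene length removed (0.32, adjusted p = 0.0602). The same held with no filter (adjusted p = 0.0596), with the replicate block (adjusted p = 0.0798) and with length trend removal and block together (adjusted p = 0.101). Its call was thus lost in 9 of the 16 other fits.

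The enzymes that supply acetyl-CoA and build fatty acids did not pass the threshold, and all 4 had a log2 fold change below 0. *Fasn*, fatty acid synthase, had 3194, 3078 and 3781 normalised counts at 13.5 dpc and 1986, 3413 and 2308 at 15.5 dpc. Replicate 2 of 15.5 dpc lay among the samples of 13.5 dpc and the other two below (log2 fold change -0.38, standard error 0.20, adjusted p = 0.2, edgeR). Its change was -0.63 with that replicate omitted (adjusted p = 0.00421), -0.23 with replicate 1 omitted (adjusted p = 0.324) and -0.12 with the length trend removed (adjusted p = 0.294). *Acly*, which cleaves citrate to acetyl-CoA and was the second most abundant of the 35 genes per length, showed the same order, with 5585, 5544 and 6034 and then 3778, 5563 and 4654 normalised counts. Its log2 fold change was -0.29 (standard error 0.15, adjusted p = 0.175, edgeR), which became -0.43 with 15.5 dpc replicate 2 omitted (adjusted p = 0.0151), -0.16 with replicate 1 omitted (adjusted p = 0.244) and -0.18 with the length trend removed (adjusted p = 0.16). *Acaca*, the acetyl-CoA carboxylase, changed by -0.20 (adjusted p = 0.236, edgeR) and *Acss2*, which makes acetyl-CoA from acetate, by -0.10 (adjusted p = 0.56, edgeR). With the trend with gene length removed, *Acaca* was at 0.093 and *Acss2* at 0.18, neither past the threshold. Both genes are long (10147 and 10163 exon bases). Of the windows of *Acaca* 30.4% occur in other transcripts, and 9.12% of the exon bases of *Acss2* overlap genes on the opposite strand, so these counts are uncertain.

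In the modification of fatty acids, the stearoyl-CoA desaturases moved in opposite directions. These enzymes place the first double bond in saturated fatty acids. *Scd2* was the most abundant of the 35 genes per length, at 138 RPKM at 13.5 dpc and 181 at 15.5 dpc. It had 9283, 9363 and 9804 normalised counts at 13.5 dpc and 12342, 12662 and 12319 at 15.5 dpc. The replicates were tight and the stages apart (log2 fold change 0.39, standard error 0.084, adjusted p = 0.0169, edgeR). *Scd1*, the form that dominates in adult liver and fat, was low, with 160, 172 and 155 normalised counts at 13.5 dpc and 118, 110 and 110 at 15.5 dpc. It fell by 0.53 on the log2 scale (standard error 0.12, adjusted p = 0.0194, edgeR). Per kilobase, *Scd2* exceeded *Scd1* by a geometric mean of 51.8 times at 13.5 dpc and 98.1 times at 15.5 dpc. The log2 ratio of *Scd1* to *Scd2* was -5.68, -5.59 and -5.81 and then -6.54, -6.67 and -6.64, a difference of -0.92 (exact permutation test, two-sided, p = 0.1), which was -0.98 to -0.87 when a sample was left out. Of the 50-base windows of *Scd1* 4.56% occur in transcripts of other genes, most often *Scd2*, and of those of *Scd2* 3.97%, most often *Scd1*.
*Fads1* fell, while *Fads2* and *Elovl6* did not pass the threshold. *Fads1*, the delta-5 desaturase, had 1577, 1557 and 1588 normalised counts at 13.5 dpc and 1139, 1187 and 1179 at 15.5 dpc (log2 fold change -0.43, standard error 0.079, adjusted p = 0.01, edgeR). *Fads2*, the delta-6 desaturase near it on chromosome 19, had 1070, 999 and 1095 and then 541, 936 and 832. The lowest sample, 15.5 dpc replicate 1, made its spread wide, and the log2 fold change of -0.45 (standard error 0.19) did not pass (adjusted p = 0.123, edgeR). It was -0.25 with that sample omitted (adjusted p = 0.0712) and -0.60 with replicate 2 omitted (adjusted p = 0.0173). *Elovl6*, which elongates palmitate to stearate, had 555, 602 and 649 and then 358, 503 and 438 (log2 fold change -0.47, standard error 0.14, adjusted p = 0.0506, edgeR). It passed the threshold in 8 of the 16 other fits, and its change was -0.58 with 15.5 dpc replicate 2 omitted (adjusted p = 0.00634) and -0.35 with replicate 1 omitted (adjusted p = 0.0375).
Without 13.5 dpc replicates 1, 2 and 3 and 15.5 dpc replicate 3, the adjusted p was 0.0851, 0.097, 0.0684 and 0.0887 for *Scd1*, 0.107, 0.103, 0.0724 and 0.0832 for *Scd2* and 0.0676, 0.06, 0.0573 and 0.0613 for *Fads1*. With library size only, *Scd2* changed by 0.18 (adjusted p = 0.174). The calls of *Scd1* and *Scd2* were each lost in 6 of the 16 other fits.

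**Figure D3:**
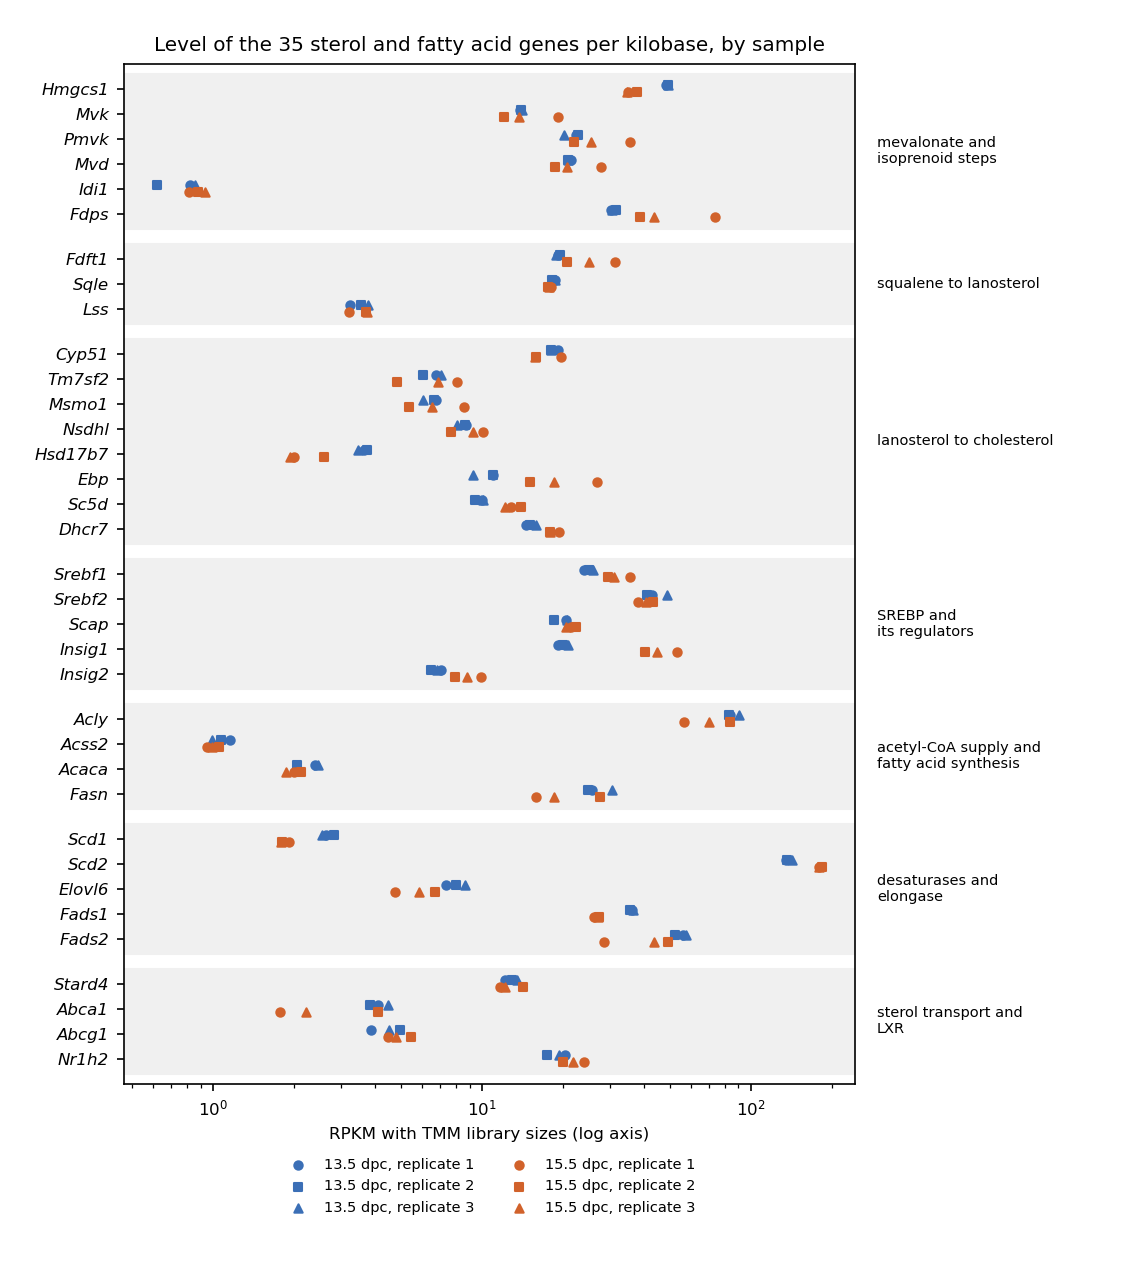
Level of each of the 35 genes per kilobase of exon in each sample, as RPKM on a log axis with TMM library sizes, in samples of 13.5 dpc (blue) and 15.5 dpc (orange), with a symbol for each replicate. *Scd2* and *Acly* lie at the top and *Idi1* and *Acss2* at the bottom, at 138 and 85.8 against 0.767 and 1.07 RPKM at 13.5 dpc.

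The genes of sterol transport and sensing did not pass the threshold. *Abca1* exports cholesterol to lipid-poor apolipoproteins and is a target of the sterol-sensing LXR receptors. It had 539, 502 and 588 normalised counts at 13.5 dpc and 232, 538 and 290 at 15.5 dpc. Replicate 2 of 15.5 dpc lay among the samples of 13.5 dpc, and the log2 fold change of -0.61 carried a standard error of 0.28 (adjusted p = 0.155, edgeR). Without that replicate it was -1.04 (adjusted p = 0.000645), and without replicate 1 it was -0.38. *Abcg1*, the exporter to high-density lipoprotein, had 199 to 255 and then 230 to 279 normalised counts (log2 fold change 0.14, adjusted p = 0.472, edgeR). The log2 ratio of *Abca1* to *Abcg1* per kilobase was 0.089, -0.37 and -0.012 at 13.5 dpc and -1.33, -0.40 and -1.12 at 15.5 dpc, a difference of -0.85 (exact permutation test, two-sided, p = 0.1), which was -0.61 with the trend with gene length removed. When a sample was left out this difference was -1.13 to -0.66, with p = 0.2 by the exact permutation test without any of the 13.5 dpc replicates or without 15.5 dpc replicate 1. *Nr1h2*, which encodes the receptor LXR-beta, had 811 ± 60.0 and 933 ± 83.9 normalised counts (SD, n = 3; log2 fold change 0.20, adjusted p = 0.206, edgeR). *Stard4*, a carrier of cholesterol in the cytosol, had 910 ± 45.6 and 898 ± 96.6 (SD, n = 3; log2 fold change -0.018, adjusted p = 0.913, edgeR).

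Gene length ran with the spread of these genes at 15.5 dpc. Among the 10 with fewer than 3000 exon bases, 8 were higher in replicate 1 than in replicate 2, with a median log2 difference of 0.59, against 9 of the 25 longer ones with a median of -0.08. Across the 35 genes the rho with length was -0.534, as a description of these libraries. *Abca1* (-1.21) and *Fasn* (-0.78) were at the low end and *Fdps* (0.94) and *Ebp* (0.83) at the high end, while *Fads2* (-0.79) was low with only 1508 exon bases. Replicate 1 was the highest sample of 15.5 dpc for 17 of the 35 genes and replicate 2 for 16, against 43.5% and 42.5% of all genes tested. Replicate 1 also had the highest sum of acinar markers of the 15.5 dpc samples. With the length trend removed, 13 of the 35 genes were called, 8 higher and 5 lower, where 32.9% of all genes were. *Srebf1* and *Scd2* then had larger changes (0.51, adjusted p = 0.0199, and 0.53, adjusted p = 0.00191), and *Fdps* (0.47, adjusted p = 0.0198), *Fdft1* (0.37, adjusted p = 0.0399), *Dhcr7* (0.32, adjusted p = 0.0143) and *Elovl6* (-0.32, adjusted p = 0.0193) passed as well.

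**Figure D4:**
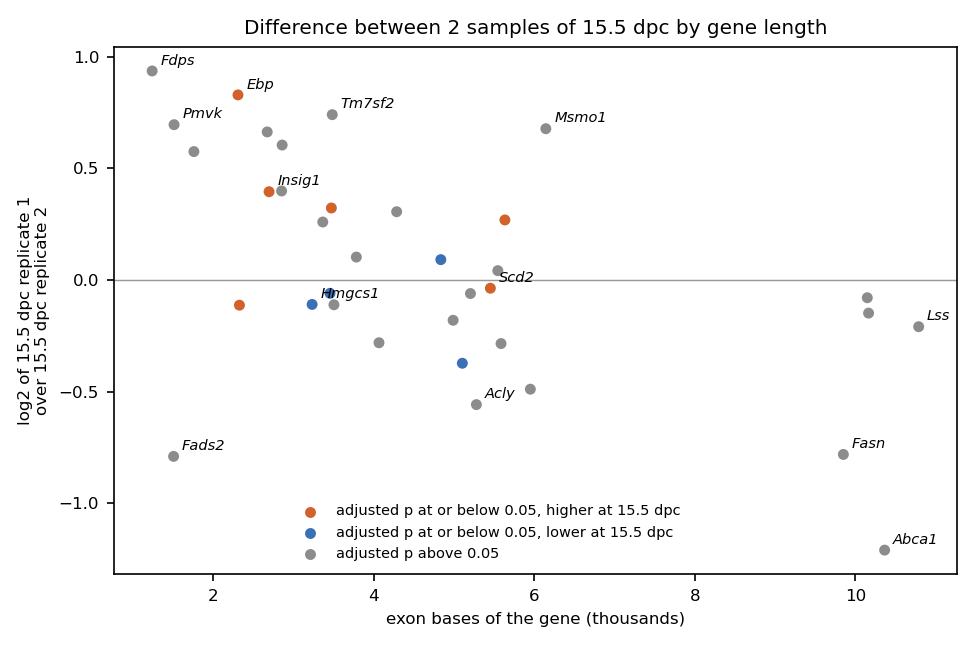
Log2 ratio of 15.5 dpc replicate 1 to 15.5 dpc replicate 2 against exon length for the 35 genes, coloured by the stage call. Values run from 0.94 for the short *Fdps* to -1.21 for the long *Abca1*, with *Fads2* and *Msmo1* away from this course.

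Other genes of the same pathways, 63 in all and not a complete list, were read from 6 lists. Of these, 59 passed the filter, 15 were higher, 6 were lower and 38 did not pass, with a median log2 fold change of 0.10. Of all genes tested 22.3% were called, 11.6% higher and 10.7% lower, and the counts in each list stand against these shares. In sterol and isoprenoid metabolism 3 of 9 tested genes rose and 0 fell. *Tmem97*, a sterol-responsive membrane protein of the endoplasmic reticulum, rose most, from 1539, 1752 and 1623 to 10633, 5120 and 7335 normalised counts (log2 fold change 2.23, standard error 0.25, adjusted p = 0.00159, edgeR). *Soat2*, which esterifies cholesterol, was low and rose from 20.0, 10.3 and 7.18 to 55.4, 46.0 and 34.0 (log2 fold change 1.87, adjusted p = 0.0134, edgeR).
In fatty acid synthesis and supply 5 of 10 rose and 1 fell. *Acacb*, the mitochondrial acetyl-CoA carboxylase that makes malonyl-CoA to restrain fatty acid oxidation, rose from 194, 202 and 238 to 411, 468 and 412 (log2 fold change 1.02, standard error 0.12, adjusted p = 0.00198, edgeR), while its cytosolic counterpart *Acaca* did not pass. *Mid1ip1*, an activator of acetyl-CoA carboxylase (0.58, adjusted p = 0.0197), the citrate carrier *Slc25a1* (0.59, adjusted p = 0.0498) and the acyl-CoA synthetase *Acsl1* (0.68, adjusted p = 0.0176) also rose.
In elongation and desaturation 1 of 12 rose (*Hacd1*, 1.01, adjusted p = 0.0219) and 2 fell (*Elovl4*, -1.12, adjusted p = 0.0153, among them), and in glycerolipid synthesis *Dgat2*, which makes triglyceride, rose (0.61, adjusted p = 0.0187) and 1 gene fell, out of 8. Of 11 genes of SREBP processing and LXR, 2 rose, among them *Mlx* (0.57, adjusted p = 0.0239), and 1 fell (*Mylip*, an LXR target, -0.70, adjusted p = 0.0177). In sterol traffic 3 of 9 rose and 1 fell (*Gramd1b*, a carrier of sterol to the endoplasmic reticulum, -0.64, adjusted p = 0.0309). The other 9 called genes lie outside the naming rule and were named after their values were seen: *Dhdds*, *Scarb1*, *Osbp*, *Osbpl2*, *Mlxipl* and *Acsl5* were higher, and *Acsl3*, *Elovl2* and *Lpin2* were lower. All values are from edgeR's test over all genes.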

How the data were processed

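RNA was measured in 6 samples, 3 pools of wt pancreata at each stage. The authors aligned single-end reads to mm10 with GSNAP, using Ensembl 69 splice sites, and counted uniquely aligned reads per gene with featureCounts 1.4.6. What the authors deposited are whole-number counts per gene, not normalised, beside each gene's exon length. The library kit kept the strand, and whether counting used it was not stated. The submitters' processing notes also name bcl2fastq 1.8.4.

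Symbols were taken from GENCODE by Ensembl identifier. Counts were filtered with filterByExpr, scaled with TMM and compared with edgeR 4.0.16 in R 4.3.3 (quasi-likelihood test, no covariates, Benjamini-Hochberg adjustment). RPKM values use the deposited lengths and TMM library sizes. Standard errors are the absolute log2 fold change over the root of F. Ratios of 2 genes were tested with exact permutation. Totals of 10546028 to 16389237 counts per sample set the precision, and all 35 genes stood above a floor of 3 counts. In data simulated for this comparison on 15430 genes, 90 of 100 genes changed 2-fold and 100 of 100 changed 4-fold were recovered, with 15 false calls. The simulated counts had a common dispersion for all genes and no trend with gene length, and genes with low counts were not among those changed. They check the procedure and do not give the recovery or the false calls in the real libraries, which differed with gene length.

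The 35 genes and the lists were chosen with earlier results of these data known. All 35 were to be named, and of the other pathway genes at most 12 called ones by size of change, with the 9 further ones named as exceptions. Alternatives were other scalings, DESeq2 1.42.0, other filters, a block for replicate number, removal of genes above 1% of counts, removal of a lowess trend with gene length (span 0.5), another fold threshold and each sample left out. Promoter sequences are from RefSeq. Shared windows were counted over GENCODE transcripts. Samples are separate pools per the study's methods.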

Additional observations from a re-analysis of the deposited data

How the results depend on the processing

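Of 560 recomputed fold changes of the 35 genes over 16 alternatives, 444 kept direction and side of the threshold, 53 lost a call, 26 gained one and 37 changed sign. Only *Insig1* and *Srebf2* kept both throughout. With library size only, which moved the median of all genes from -0.01 to -0.22, changes of sign were *Mvk* (-0.13), *Mvd* (-0.14), *Idi1* (-0.019), *Lss* (-0.19), *Msmo1* (-0.15), *Nsdhl* (-0.14), *Scap* (-0.10), *Abcg1* (-0.067) and *Nr1h2* (-0.018), and the median of the 35 was -0.15, against 0.07. With the length trend removed they were *Mvd* (-0.095), *Sqle* (0.089), *Tm7sf2* (0.010), *Acss2* (0.18), *Acaca* (0.093) and *Stard4* (0.12), and with the replicate block added *Mvd* (-0.097), *Sqle* (0.085), *Acss2* (0.19), *Acaca* (0.093) and *Stard4* (0.12). *Lss* was -0.016 with upper quartile factors and -0.0089 with no filter, and *Tm7sf2* 0.011 with RLE factors and 0.0039 with DESeq2. When single samples were omitted, sign changes were within -0.12 to 0.24 (*Mvk*), -0.096 to 0.22 (*Mvd*), -0.12 to 0.24 (*Msmo1*), -0.0073 to 0.20 (*Nsdhl*), -0.044 to 0.082 (*Lss*), -0.18 to 0.19 (*Tm7sf2*) and -0.097 to 0.039 (*Stard4*).

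The number called was 10, and 1 to 19 with single samples omitted (1 without 13.5 dpc replicate 1, 19 without 15.5 dpc replicate 2). DESeq2 called 13, 8 higher and 5 lower, where it called 14% of all genes higher and 11.3% lower. Replicate numbers were not taken as pairs, given correlations of 0.211, -0.209 and 0.034 between same-numbered samples. With the replicate block 5 were called, 2 higher and 3 lower, where 9.15% of all genes were higher and 8.02% lower, and the median was 0.053. The number past the study's thresholds was 3. It was 1 when a fold under 0.5 or over 2 was asked for, 2 with the length trend removed, and 2 to 5 with single samples omitted. The median was then -0.066 to 0.094. The 4 ratio differences kept their sign in every fit, and in pairs by replicate number the exact test gave p = 0.25, the smallest that 3 pairs allow. For all of these, the cause was not tested. Depth limits low genes most, such as *Idi1* with 26 to 53 counts per sample.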
